A study of Homo sapiens with 24 samples.

Results

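The 9 genes described here encode chains of laminin-332, the integrins that bind it and the plakins of the hemidesmosome: LAMA3, LAMB3, ITGA6, ITGB4, ITGA3, ITGA2, ITGB1, PLEC, and DST. They were chosen by name, as 9 of 20098 protein-coding genes on chromosomes 1 to 22 and X, by a rule that uses no measured value. All 9 were found in the annotation by symbol. The data are Flag chromatin immunoprecipitation (ChIP-seq) peak lists from MCF-10A cells, a nontumorigenic human mammary epithelial line, that carry ER-Src, a v-Src oncoprotein fused to the ligand-binding domain of the estrogen receptor. Every library came from such cells with stable retroviral expression of S100A8 or S100A9 carrying a Flag tag, so that the tagged protein was added to the endogenous one and the antibody saw only the tagged form. Cells were kept for 24 hours in 1 μM 4-hydroxytamoxifen (TAM), which switches ER-Src on and transforms them, or in ethanol (EtOH), the vehicle. There were 2 S100A8 EtOH, 3 S100A8 TAM, 3 S100A9 EtOH, and 3 S100A9 TAM libraries. Their labels number them as replicates, and the methods of the study speak of biological replicates.

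Laminin-332 is a heterotrimer of an α, a β, and a γ chain that anchors epithelial cells to the basement membrane. LAMA3 encodes its α3 chain and LAMB3 its β3 chain. Integrin α6β4, made by ITGA6 and ITGB4, binds laminin-332 and nucleates the hemidesmosome, where plectin (PLEC) and the epithelial form of dystonin (DST) tie it to keratin filaments. Integrin α3β1 (ITGA3 and ITGB1) is a further laminin receptor found outside hemidesmosomes, and α2β1 (ITGA2 and ITGB1) binds mainly collagen. Basal mammary epithelial cells use these complexes for adhesion and polarity. The question put to the data was whether S100A8-Flag and S100A9-Flag were found at these genes, whether this differed between EtOH and TAM, and whether it differed between the proteins.

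Each list gives peaks with a fold enrichment over the input and a q value. Peaks with q of at most 1e-07 were counted for a gene where the summit lay in the gene body or within 50 kb of it. The lists differ greatly in length. EtOH libraries held 1853 to 4609 such peaks over all chromosomes used and TAM libraries 21518 to 40735, and read numbers were not among the data, so that depth and binding cannot be told apart in a peak number. Where such peaks of 2 or more replicates of one condition overlapped, the region was taken as a site, and sites of the 4 conditions were merged. There were 30322 sites in all and 99 at the 9 genes, each of which had at least 1, as did 84.9% of all genes. Of the 99, 32 (32.3%) lay at a promoter of any gene, against 31.2% of all sites.

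All 9 genes had peaks in every TAM library, and the number was higher in TAM than in EtOH at each of them. Over the 9 genes together, the 5 EtOH libraries held between 7 and 24 peaks and the 6 TAM libraries between 79 and 121. In the exact permutation test of the treatment labels within each protein, with Benjamini-Hochberg adjustment over the 18126 genes tested, all 9 passed an adjusted p of 0.05, all in the direction of TAM. The background is high: 67.6% of the genes tested passed in that direction, and 0 passed in the other. The median difference was 1.81 on the log2(peaks + 1) scale over the 9 genes and 1.39 over all genes tested. The smallest p that the 200 arrangements can give is 0.01. It was reached by 7 of the 9 genes, with an adjusted p of 0.0219, and by 45.7% of all genes tested. With this floor a gene can pass the adjustment only where a large share of all genes reaches it too, so that a count of 0 in the tests that follow does not show that no gene differed. When every library was cut to the 1853 peaks with its lowest q values, none of the 7 that could still be tested passed (ITGA6 and ITGA2 had too few peaks), as 0% of all genes did, and the 9 genes together held 7 to 10 peaks in EtOH and 4 to 13 in TAM libraries. With peaks in the gene body alone, 0 of the 9 genes and 0% of all genes passed after adjustment. The median difference there was 1.47 over the 9 genes and 0.68 over all genes tested.

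LAMB3 led the group. It held 5 and 2 peaks in the S100A8 EtOH libraries and 38, 21, and 24 in S100A8 TAM. It held 3, 1, and 1 in S100A9 EtOH and 26, 24, and 34 in S100A9 TAM. Every TAM library stood well above every EtOH library, and the 2 proteins gave nearly the same TAM mean, 27.7 ± 9.07 (SD, n = 3) for S100A8 and 28 ± 5.29 (SD, n = 3) for S100A9. The difference between treatments was 3.11 on the log2(peaks + 1) scale (exact permutation test, p = 0.01, adjusted p = 0.0219), which placed LAMB3 at rank 10 of 18126 genes by size. Its rank ran from 5 to 120 when each library was left out in turn, and it was 120 without S100A8 EtOH replicate 2.

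LAMA3, the partner chain, had far fewer peaks. It held 1 and 0 in S100A8 EtOH, 8, 6, and 2 in S100A8 TAM, 2, 0, and 1 in S100A9 EtOH, and 5, 3, and 10 in S100A9 TAM. The treatments met at 2 peaks, the lowest TAM and the highest EtOH value. The difference was 1.92 on the log2(peaks + 1) scale (exact permutation test, adjusted p = 0.0219).

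Both hemidesmosomal integrin chain genes had more peaks in TAM. ITGB4 held 3 and 2 peaks in S100A8 EtOH, 15, 11, and 8 in S100A8 TAM, 2, 0, and 2 in S100A9 EtOH, and 8, 11, and 15 in S100A9 TAM. ITGA6 held 1 and 1, then 6, 4, and 2, then 0, 0, and 1, and then 5, 6, and 4 peaks in the same order of libraries. In both genes all TAM libraries lay above all EtOH libraries, with differences of 2.16 for ITGB4 and 1.74 for ITGA6 on the log2(peaks + 1) scale (exact permutation test, adjusted p = 0.0219 for each). Such full separation was seen in 6 of the 9 genes, LAMB3, ITGA6, ITGB4, ITGA3, ITGB1, and PLEC, and in 40.2% of all genes tested.

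Among the β1 integrin genes, ITGA3 had the most peaks, 3 and 4 in S100A8 EtOH, 14, 10, and 12 in S100A8 TAM, 1, 1, and 6 in S100A9 EtOH, and 12, 10, and 14 in S100A9 TAM. ITGB1, the shared β chain, held 2 and 2, then 3, 6, and 3, then 1, 0, and 2, and then 8, 6, and 5 peaks. Their differences were 1.81 and 1.34 on the log2(peaks + 1) scale (exact permutation test, adjusted p = 0.0219 for each). ITGA2 was the sparsest of the 9 genes. It held 0 and 0, then 3, 1, and 3, then 1, 0, and 1, and then 3, 1, and 4 peaks, so that a TAM library with 1 peak tied with EtOH libraries. Its difference was 1.39 (exact permutation test, p = 0.03, adjusted p = 0.0443). That call was lost when any library other than S100A9 TAM replicate 2 was left out, with adjusted p between 0.0398 and 0.104 over the 11 omissions.

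The plakin genes differed from each other. PLEC held 2 and 9 peaks in S100A8 EtOH, 20, 19, and 21 in S100A8 TAM, 4, 4, and 7 in S100A9 EtOH, and 19, 19, and 29 in S100A9 TAM, with a difference of 1.95 (exact permutation test, adjusted p = 0.0219). DST, with a gene body of 497 kb the longest of the 9, held only 0 and 4, then 9, 3, and 4, then 1, 1, and 2, and then 5, 4, and 6 peaks. The treatments overlapped in DST, since S100A8 EtOH replicate 2 reached 4 and S100A8 TAM replicate 2 only 3. Its difference was 1.38 (exact permutation test, p = 0.03, adjusted p = 0.0443). The DST call was lost when any library other than S100A8 EtOH replicate 2 was left out, with adjusted p between 0.0489 and 0.104, and the DST difference was 0.80 without S100A8 EtOH replicate 1.

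**Figure D1:**
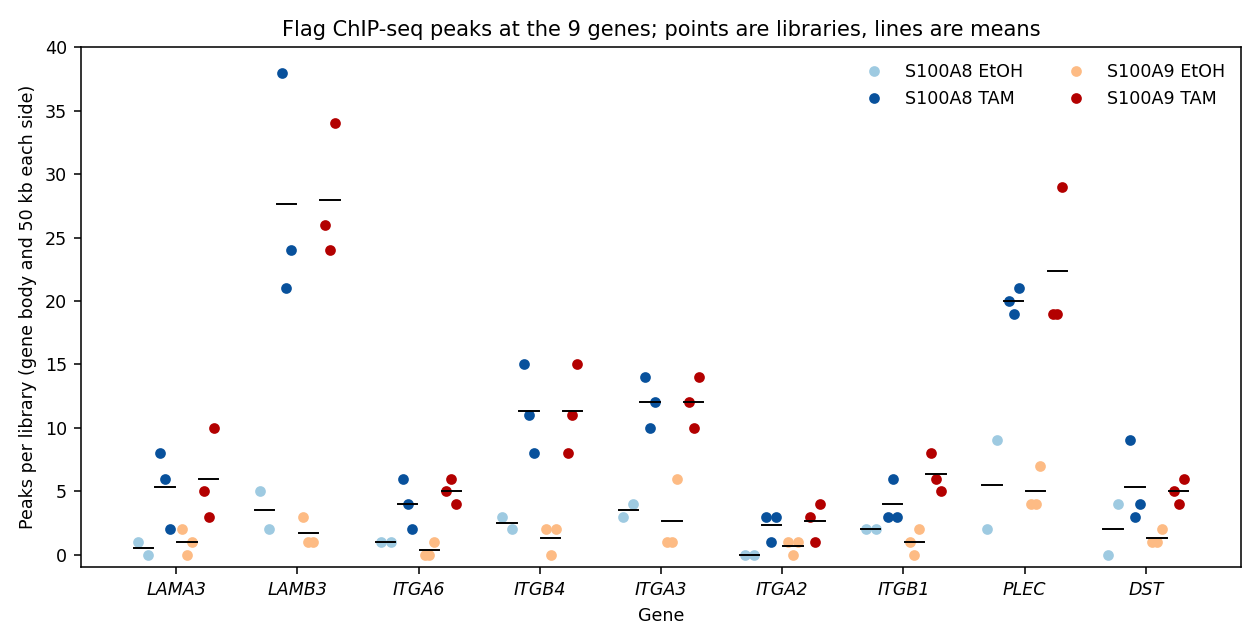
Peaks with q of at most 1e-07 in each gene's window (vertical axis, number) for the 9 genes (horizontal axis); each point is 1 of 11 libraries, colored by protein and treatment, and each line is the mean of a group. LAMB3 rises from 1 to 5 peaks in EtOH to 21 to 38 in TAM libraries, and ITGA2 stays at or below 4 in all.

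Since TAM lists are longer, the share of each library's peaks that fell to a gene was tested as well. None of the 9 genes passed, as none of all genes did (0% after adjustment). At an unadjusted p of at most 0.05 there were again 0 of the 9, against 22.7% of all genes tested. That number was 3 with every peak as deposited, in the gene body alone, or without S100A8 EtOH replicate 1. It was 0 or 1 with any other library left out. The 22.7% holds for the main setting alone. No share of all genes is given for the other settings, so those counts show nothing particular to the 9 genes. The direction was split, with 4 genes higher and 5 lower in TAM, and 2 genes stood at opposite ends. LAMB3 took between 2.18 and 11.6 of every 10000 peaks in EtOH libraries and between 8.35 and 12.9 in TAM, a difference of 3.60 that was rank 6 from the top of 18126 genes (exact permutation test, p = 0.08, adjusted p = 0.301). Without S100A8 EtOH replicate 2 the LAMB3 difference was 1.79, at rank 353, and without S100A8 EtOH replicate 1 it was 5.40. PLEC took between 4.62 and 21.6 of every 10000 in EtOH and between 6.81 and 9.76 in TAM, a difference of -6.21 that was rank 77 from the bottom (exact permutation test, p = 0.10, adjusted p = 0.334). Without S100A8 EtOH replicate 2 the PLEC difference was -2.48, and without S100A8 EtOH replicate 1 it was -9.93. With lists of equal length, PLEC turned to a positive difference of 5.40. ITGA3 also took a smaller share in TAM, by -2.98 of every 10000 (exact permutation test, p = 0.06, adjusted p = 0.242), and by -1.48 without S100A9 EtOH replicate 3. The ranges of both treatments overlapped in each of these genes. The 9 genes together took 37.8 to 52.1 of every 10000 peaks in EtOH libraries and 29.7 to 39.5 in TAM.

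**Figure D2:**
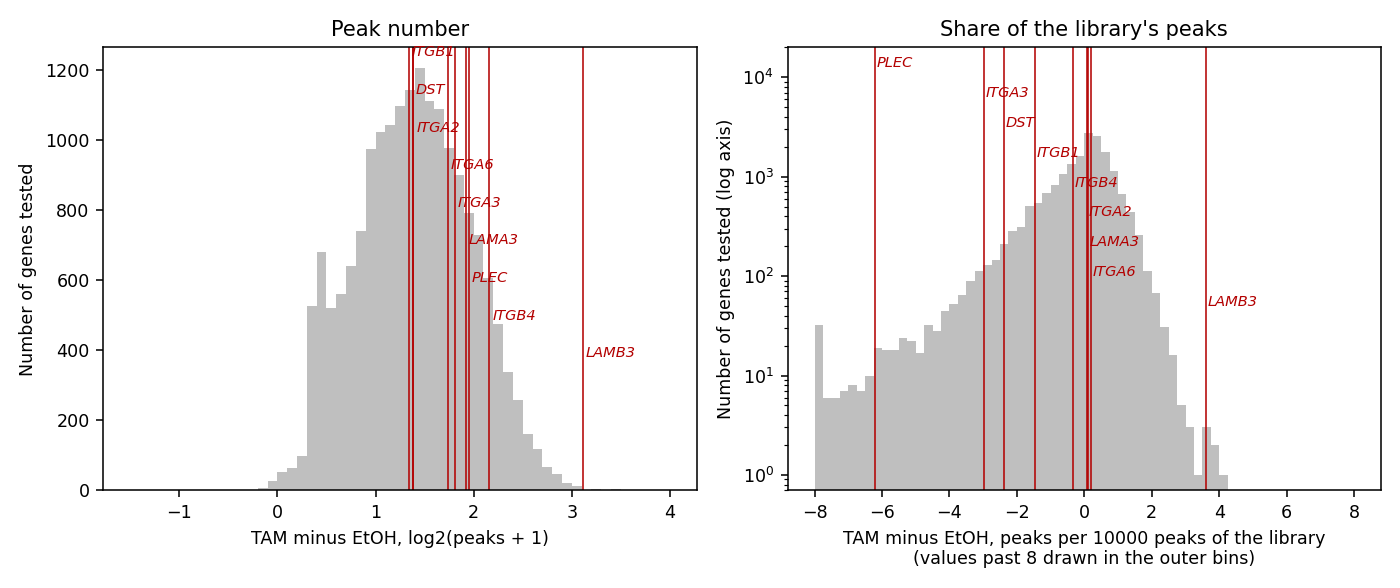
Difference between TAM and EtOH for all 18126 genes tested (gray bars, number of genes) and for the 9 genes (red lines), as log2(peaks + 1) at left and as peaks per 10000 peaks of the library at right, where the vertical axis is logarithmic. LAMB3 lies in the upper tail of both, while PLEC is above the median for peak number and in the lower tail for the share.

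No difference between S100A8 and S100A9 passed the test at these genes. In the exact permutation test of the protein labels within each treatment, 0 of the 9 genes passed, as did 0% of all genes tested. At an unadjusted p of at most 0.05 there were 0 of the 9, against 0.91% of all genes. The differences, S100A9 minus S100A8 on the log2(peaks + 1) scale, ran from -0.37 in ITGB4 to 0.39 in ITGA2, each with an adjusted p of 1. The ITGB4 value was -0.10 without S100A9 EtOH replicate 2 and -0.99 with a 10 kb flank, and that of ITGA2 was 0.22 without S100A8 TAM replicate 2 and 0.25 without S100A9 TAM replicate 3. Likewise, the difference between treatments was not found to differ between the proteins in any of the 9 genes, with 0% of all genes passing after adjustment and 2.6% before it. The largest such interaction was in ITGB1, 0.68 for S100A8 and 1.99 for S100A9 (difference 1.31, exact permutation test, p = 0.09, adjusted p = 1), and with lists of equal length its sign turned to -1.03. A p that misses the threshold with 2 or 3 libraries a group does not show that the proteins were alike.

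At the level of sites, 87 of the 99 sites were called in TAM libraries of both proteins (87.9%, against 77.6% of all 30322 sites). Of the others, 9 were called in those of S100A9 alone, against 16.6% of all sites, and 3 in those of S100A8 alone, against 5.76%. A larger share of TAM than of EtOH libraries called 98 of the 99 sites, where 98.2% of all sites did so. In EtOH, 55 of the 99 (55.6%) were called in no library, against 68.9% of all sites. Of these 55, 29 had a peak with a weaker q in an EtOH list and 26 had none. All 6 TAM libraries called 25 of the 99 sites (25.3%), against 14.3% of all sites, and 11 of them had no EtOH call (11.1%, against 4.69%). These 11 comprised 6 sites at LAMB3, 2 at PLEC, and 1 each at ITGA6, ITGA3, and DST. Another 10 sites were called in all 6 TAM libraries and in EtOH libraries of both proteins, where the share of all sites was 4.5%. No site was called in all 11 libraries, and the most were 10. The shares above are not adjusted for width, and an overlap of 1 bp made a call. Median width was 479 bp at the 9 genes and 342 bp over all sites, and its part in these shares was not tested.

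Sequences around the summits of sites that the results turn on are printed here in build GRCh37, plus strand, up to 101 bases each, with exonic bases left out. Capitals mark matches to AP-1 (TGANTCA), ETS (CGGAAG), or TEAD (GGAATG) on either strand. They are often called sites of 6 of the genes, further sites with a pair of AP-1 matches, and the DST site called mostly in S100A9 libraries. The pairs at ITGA2, called in 2 TAM libraries, and at PLEC, called in 6, are not printed.
LAMA3 internal promoter, chr18:21452835-21452935: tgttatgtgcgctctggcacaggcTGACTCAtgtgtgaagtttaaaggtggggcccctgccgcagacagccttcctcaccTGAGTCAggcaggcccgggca
LAMB3 promoter, chr1:209826488-209826588: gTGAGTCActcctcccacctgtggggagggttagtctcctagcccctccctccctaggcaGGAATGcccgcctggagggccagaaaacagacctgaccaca
LAMB3 upstream, chr1:209829254-209829354: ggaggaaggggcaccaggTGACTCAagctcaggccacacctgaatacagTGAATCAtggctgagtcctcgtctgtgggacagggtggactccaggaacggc
ITGA6 intron, chr2:173306915-173307015: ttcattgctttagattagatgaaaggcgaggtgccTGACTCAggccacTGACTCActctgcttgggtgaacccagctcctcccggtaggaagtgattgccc
ITGA3 upstream, chr17:48105064-48105164: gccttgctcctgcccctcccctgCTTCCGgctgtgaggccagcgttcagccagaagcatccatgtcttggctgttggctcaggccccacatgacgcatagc
ITGB1 intron, chr10:33269650-33269750: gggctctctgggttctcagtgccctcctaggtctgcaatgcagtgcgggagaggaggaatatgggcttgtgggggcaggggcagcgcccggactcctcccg
DST intron, chr6:56803623-56803723: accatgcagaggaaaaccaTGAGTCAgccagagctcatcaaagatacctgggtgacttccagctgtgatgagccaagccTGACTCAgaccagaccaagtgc
DST internal start, chr6:56407607-56407661: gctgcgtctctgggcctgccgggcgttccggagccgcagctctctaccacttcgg

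In LAMA3, the internal promoter and not the most upstream one was called most often. The site at chr18:21452579-21453155 lies in an intron of the long transcript, with its summit 99 bp upstream of the start of a shorter transcript at position 21452984, and it was called in all 6 TAM libraries and in 1 of 5 EtOH libraries. Its fold enrichment was 11.7 in S100A8 EtOH replicate 1, between 7.22 and 11.5 in the S100A8 TAM libraries and between 7.93 and 16.7 in the S100A9 TAM libraries. At the canonical start, the site at chr18:21269193-21269562 was called in 4 TAM libraries, 1 of S100A8 and 3 of S100A9, and in no EtOH library. There 1 EtOH list held a weaker peak. The internal site carries 2 AP-1 matches within 50 bp of its summit, as printed. Among its distal sites the most calls were 4, reached by an intronic site with 4 TAM calls and by a stronger one over a coding exon with 1 EtOH and 3 TAM calls.

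LAMB3 had 30 sites in its window, more than any other of the 20098 genes, and also ranked 1 in sites per 100 kb, with 21.8 where the median of all genes was 1.83. Its neighbor CAMK1G, whose window overlaps that of LAMB3, came next with 26. This rank was looked up after the values were seen and has no test. Of the 30 sites, 12 lay in the LAMB3 body, 11 upstream, and 7 beyond its 3′ end. The sites were weak for their libraries, with a median percentile of fold enrichment of 25.5, where 51.1 was the median over all sites. LAMB3 held rank 1 with every peak as deposited, at a stricter q and with each library left out, rank 8 when a site had to be called in every replicate of a condition, rank 19 in the gene body alone, and rank 81 with lists of equal length.

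The LAMB3 promoter was covered by neighboring sites. At chr1:209826265-209826854, with the summit 768 bp upstream of the canonical start, 4 of 5 EtOH and all 6 TAM libraries had a call, and the one without was S100A9 EtOH replicate 3. The fold enrichment of the EtOH calls, 6.39 to 11.2, overlapped that of the TAM calls, 5.24 to 15.1. At chr1:209825332-209826162, 111 bp upstream of the same start, every TAM library had a call and none from EtOH did, though 2 EtOH lists held a weaker peak. Other promoter sites lay at the starts of shorter transcripts, one next to the canonical start (4 TAM and 1 EtOH calls) and one near the 3′ end (4 TAM calls), the latter with a mean percentile of only 5.11. Farther upstream, sites with summits 3534 and 4903 bp from the start were each called in all 6 TAM libraries, the nearer in no EtOH library and the other in 1. The nearer one holds 2 AP-1 matches, and 1 EtOH list held a weaker peak there.

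Just beyond the 3′ end of LAMB3, over introns and a coding exon of CAMK1G, a calcium/calmodulin-dependent kinase gene, 3 sites lay side by side with widths of 2394, 2330, and 2603 bp. Only 40 of all 30322 sites (0.132%) were 2000 bp or wider, and 3 of them were these. Each was called in all 6 TAM libraries and in no EtOH library. Those 2394 and 2330 bp wide had no EtOH peak at any q in the lists, while 3 EtOH lists held a weaker peak at the one nearest to LAMB3. Whether these sites belong to LAMB3 or to CAMK1G cannot be told from peak positions.

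**Figure D3:**
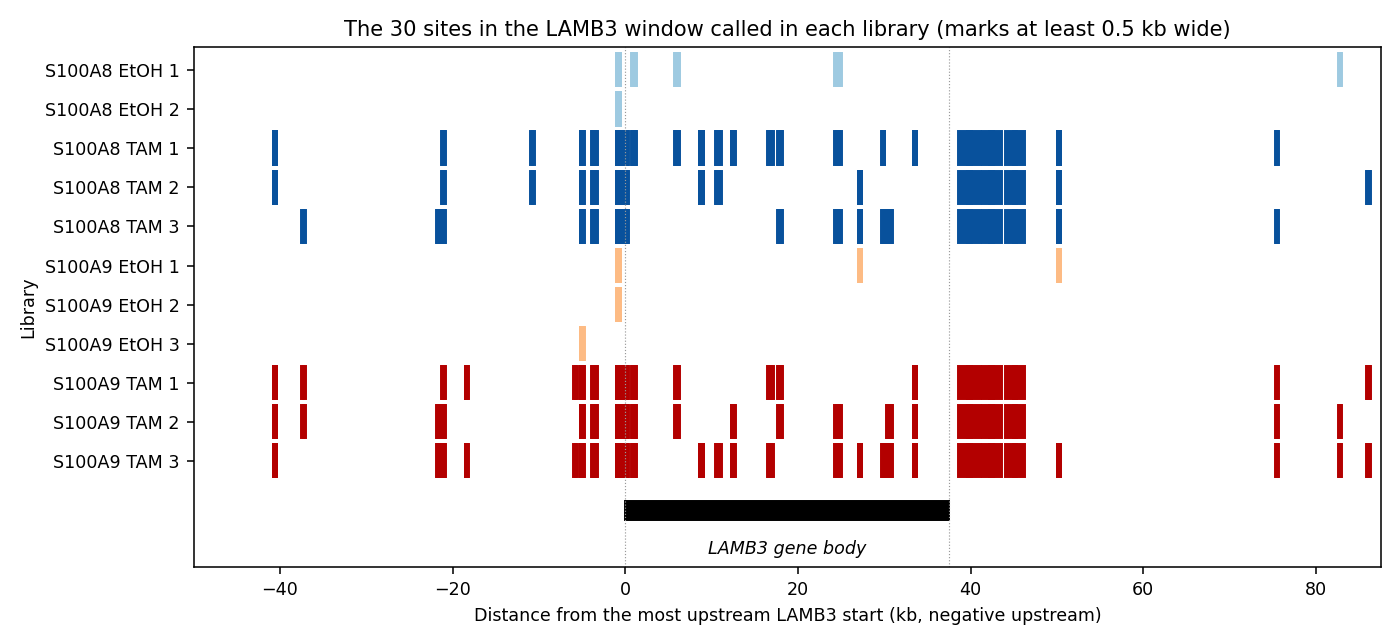
Sites in the LAMB3 window called in each of 11 libraries (rows), plotted by distance in kb from the most upstream LAMB3 start (horizontal axis, negative upstream); the black bar is the gene body and colored marks are calls, drawn at least 0.5 kb wide. EtOH rows hold 11 calls at 8 sites, 4 of them at the site 768 bp upstream of the start, while all TAM rows share the block beyond the 3′ end.

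ITGA6 had 6 sites. Its promoter site at chr2:173291819-173292597, 24 bp upstream of the canonical start, had calls in 5 TAM libraries and in none from EtOH, with fold enrichment from 7.65 to 11.1. The ITGA6 distal site with the most calls lay in an intron 14.9 kb into the gene, at chr2:173306764-173307112, with every TAM library and none from EtOH, and no EtOH list held any peak there. It carries 2 AP-1 matches and its fold enrichment ran from 5.99 to 13.1. A site called in 3 EtOH and 5 TAM libraries at the far end of the window sits on the promoter of PDK1, a pyruvate dehydrogenase kinase gene.

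ITGB4 had 14 sites, but few near its own promoter. Only 1 lay in the gene body and 13 outside it, the promoter site among them. The flanks hold other genes, so whether the other flank sites belong to ITGB4 cannot be told from peak positions. The promoter site at chr17:73717084-73717769, 194 bp upstream of a protein-coding start, had calls in 5 TAM libraries, 3 of S100A8 and 2 of S100A9, and in none from EtOH. A weaker peak lay there in 2 EtOH lists. In the flank beyond the 3′ end, the promoter of H3-3B, a histone H3 variant gene, was called in all 6 TAM libraries and in 1 EtOH library of each protein. Sites at promoters of other genes made up 10 of the 99.

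ITGA3 had 13 sites. The one called most often at any of the integrin genes lay 28360 bp upstream of the nearest start in intergenic DNA, at chr17:48104268-48105532, with 4 EtOH and 6 TAM libraries. EtOH libraries had fold enrichments of 7.23 to 8.68 there, and TAM libraries of 5.09 to 12.3. The promoter held 2 sites, at 440 and 895 bp upstream of the canonical start, called in 2 EtOH and 6 TAM and in 0 EtOH and 4 TAM libraries. At the one 895 bp upstream, 1 EtOH list held a weaker peak. An intronic site 6.74 kb into the gene was called in 2 EtOH and 6 TAM libraries.

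ITGB1 had 5 sites. Its most called site lay in an intron 25.0 kb into the gene, at chr10:33269347-33269954, with 3 EtOH and 6 TAM libraries, and fold enrichment there reached 18.7 in S100A8 TAM replicate 3. The promoter site, 218 bp upstream of a protein-coding start, was called in 2 EtOH and 5 TAM libraries, and both EtOH calls were in S100A8. A site next to the most upstream end of the gene, at chr10:33294565-33294969, was called in all 6 TAM libraries and 1 EtOH library. It counts as distal here because the transcripts that start there are not annotated as protein coding. ITGA2 had 2 sites. Its promoter site, 12 bp upstream of the only protein-coding start, was called in 4 TAM libraries and 1 EtOH library, and the other lay beyond the 3′ end with 2 S100A8 TAM calls and a pair of AP-1 matches.

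DST had 5 sites, one of them called mostly in S100A9 libraries. The site at chr6:56407323-56407996, with its summit 5 bp upstream of a start at position 56407606, was the only one of the 99 called in a larger share of EtOH than of TAM libraries. All 6 S100A9 libraries called it, against 1 of 5 S100A8 libraries and 0 of the 3 S100A8 TAM libraries. Every list had a peak there, and the values of −log10 q show the difference. They were 5.37 and 8.03 in S100A8 EtOH, 2.47, 3.47, and 1.88 in S100A8 TAM, 9.2, 9.82, and 10.2 in S100A9 EtOH, and 25.9, 25, and 23.6 in S100A9 TAM. Thus the lowest S100A9 value in TAM lay far above the highest S100A8 value. Only 4 of all 30322 sites (0.0132%) were called in all 6 S100A9 libraries and no S100A8 TAM library, and 1 of the other 3 lay in S100A9 itself, of which the S100A9 cells carry an added tagged copy. The DST pattern was singled out after its values were seen and has no test.

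Another DST site, in an intron 16.0 kb into the gene, at chr6:56803418-56803813, had calls in every TAM library and none in EtOH, and it holds 2 AP-1 matches. A weaker peak lay there in 2 EtOH lists, with −log10 q of 5.37 and 4.13. The site 468 bp upstream of the canonical start was called in 2 EtOH and 6 TAM libraries and lies at the divergent promoter of BEND6, so that the genes cannot be told apart there. Sites at 2 further internal starts had 2 calls each, both from S100A9 TAM at one and both from S100A8 TAM at the other.

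**Figure D4:**
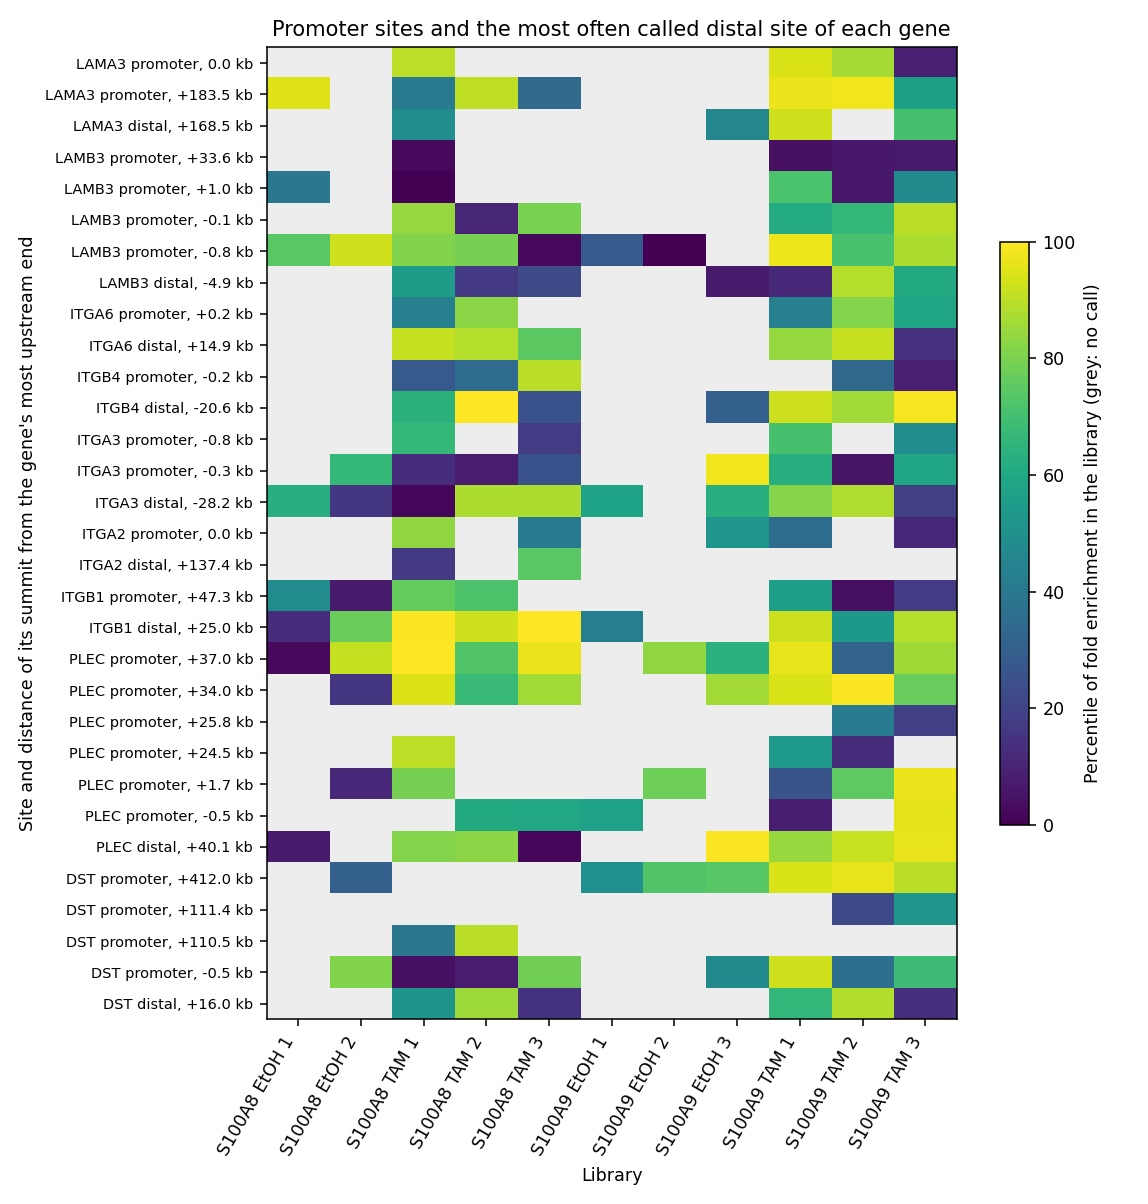
Promoter sites and the most often called distal site of each gene (rows, with the distance in kb of the summit from the most upstream end of the gene) in 11 libraries (columns); color is the percentile of fold enrichment among the library's peaks and gray means no call. EtOH columns are mostly gray, and the DST site at 412 kb is filled in all 6 S100A9 columns and in 1 of the 5 S100A8 columns.

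Across the 9 genes there were 22 promoter sites, with summits no more than 1500 bp before or 250 bp after a protein-coding start. All 9 genes had at least 1, where 45.7% of all genes did. A gene with more annotated starts has more places for one, and these genes had from 1 (ITGA2) to 20 (DST). At each gene the canonical start had one within that range, and no share of all genes is given for canonical starts. At −log10 q of at least 10 it was 7 of the 9, and no share of all genes is given for that threshold. PLEC had the most promoter sites, 6, in a total of 18 sites, and 5 of its 13 annotated starts had a site in range. The PLEC site at its canonical start, with the summit 111 bp upstream, was 1804 bp wide and called in 4 EtOH and 6 TAM libraries. The next one, 184 bp upstream of an alternative start, was 2275 bp wide and called in 2 EtOH and 6 TAM libraries, where its fold enrichment reached 20.5. The other 4 PLEC promoter sites had 2, 3, 4, and 4 TAM calls, and 0, 0, 2, and 1 EtOH calls. The PLEC distal site called in the most libraries lay in an intron, with 2 EtOH and 6 TAM calls. The best PLEC peak of a library ranked between percentile 97.2 and 99.7 in the 6 TAM libraries, and the best LAMB3 peak between 79.7 and 97.5. An EtOH call was found at 12 of these 22 sites (54.5%) and at 8 of the 10 sites at promoters of other genes, where the share over promoter sites of any gene was 49.7%. At distal sites it was found at 24 of 67 (35.8%), against 22.7% of all distal sites.

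Motif letters were searched within 50 bp of each summit. AP-1 (TGANTCA) was found at 18 of 67 distal sites of these genes (26.9%), and 31.1% of all 20876 distal sites held it. At promoters of any gene in the windows, 5 of 32 sites held AP-1 (15.6%), where the share of all promoter sites was 5.65%. ETS (CGGAAG) was found at 1 of the 32 (3.13%), against 17.4%, and KLF/SP1 (CCCCGCCC) at 5 of the 32 (15.6%), against 13.4%. The ETS and STAT3 letters can share bases. STAT3 (TTCNNNGAA) was found at 3 of the 32 promoter sites (9.38%, against 2.29%) and at 2 of the 67 distal sites (2.99%, against 3.09%). C/EBP (TTGCNNAA), TEAD (GGAATG), CTCF, and p53/p63 were found at 5.97%, 5.97%, 7.46%, and 5.97% of the distal sites, against 8.86%, 8.82%, 11.2%, and 3.55% of all distal sites. At the 32 promoter sites the counts were 0, 2, 2, and 0, where all promoter sites had shares of 2.99%, 4.08%, 5.11%, and 1.81%.

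Of the 99 sites, 6 held 2 AP-1 matches (6.06%, against 2.95% of all sites): one each at LAMA3, LAMB3, ITGA6, ITGA2, PLEC, and DST. All 6 TAM libraries called 5 of these 6, where the share among all 894 sites with at least 2 matches was 13.8%. The exception was the ITGA2 site, called in 2. This grouping was made after the calls were seen, rests on 6 sites and has no test.

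**Figure D5:**
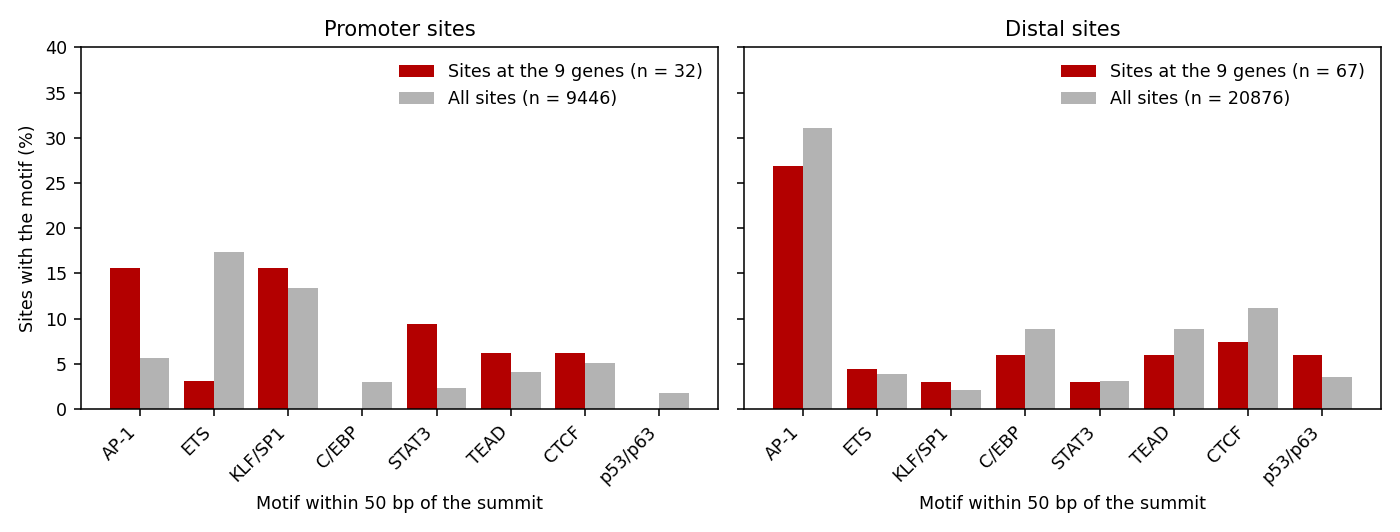
Percent of sites with each motif within 50 bp of the summit (vertical axis), for sites at the 9 genes (red) and all sites (gray), at promoter sites (left, 32 against 9446) and distal sites (right, 67 against 20876). At promoters AP-1 is higher and ETS lower at the 9 genes than over all sites, and at distal sites AP-1 is close in both.

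Related genes were taken from lists by function. Of 50 genes, 48 had enough peaks to be tested, and 42 passed the exact permutation test in the direction of TAM at an adjusted p of at most 0.05, none in the other, with a median difference of 1.65 on the log2(peaks + 1) scale. That share stands beside 67.6% of all genes. Among basement membrane genes (other laminin chains, nidogens, perlecan, collagens, and dystroglycan), 14 of 15 passed. The exception, LAMA1, which encodes an α chain of the embryonic basement membrane, had 0 to 2 peaks. DAG1 (dystroglycan) and NID1 (nidogen) had the largest differences, 2.61 and 2.53. Of other integrin genes, 8 of 10 tested passed. ITGA7 (a laminin-binding α chain of muscle) had a difference of 2.70 and ITGA5 (the fibronectin receptor α chain) one of 2.23, while ITGAV (a vitronectin receptor chain) and ITGA9 did not pass. ITGA4 and ITGA8 had no site and too few peaks for a test.

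Integrins best known from leukocytes and platelets passed in 8 of 9 genes, with ITGAX the exception. ITGAL, the α chain of a lymphocyte integrin, had 0 or 1 peak in EtOH and 4 to 12 in TAM libraries, a difference of 2.58. Yet 0 of its 10 sites lay at its promoter, and only 3 of these 9 genes had a promoter site. Windows reach 50 kb past each gene and can overlap, so that the peaks counted may belong to neighbors. All 3 hemidesmosome partners passed: the tetraspanin gene CD151 and the basal keratin genes KRT5 and KRT14, with differences of 1.68, 2.32, and 1.25. Of 11 integrin adaptors, 9 passed. PXN, which encodes the focal adhesion scaffold paxillin, had the largest difference, 3.30, with 0 or 1 peak in EtOH and 9 to 16 in TAM libraries and 17 sites. FERMT3, a blood cell kindlin, followed with 2.89, while FERMT1, the epithelial kindlin, and PARVA did not pass. Of the 50 genes, 27 had a promoter site, beside 45.7% of all genes.

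The pattern most like that of the 9 genes was sought as the correlation of the share of library peaks over the 11 libraries, among 14490 genes with a peak in at least 6 of them. The highest Pearson correlations were 0.914 for ENSG00000289764, 0.906 for SNX32, 0.903 for TAFA2, 0.893 for ZNF33B, and 0.890 for SHARPIN. The points share libraries and list lengths, and the correlations are given as a description.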

How the data were processed

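Flag ChIP-seq was performed on dual cross-linked ER-Src cells, and 11 of 24 samples have the peak lists used here; the other 13 (11 inputs and 2 RNA polymerase libraries) were not analysed here. The authors used Bowtie2 for alignment to hg19, discarded reads with several matches and ran MACS2 on each library against input, without pooling replicates (versions not given in the sources used here). The deposited lists give the fold enrichment (a ratio), the −log10 p and −log10 q values and the summit offset of each peak, and no read counts, so that depth is unknown.

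Peaks with −log10 q of at least 7 were kept, a filter taken from the study, whose further read filter could not be repeated on peak lists. Genes were from GENCODE 44 on GRCh37, with a 50 kb flank. Genes with a peak in at least 2 libraries were tested by exact permutation of labels within protein or treatment (200 arrangements, two-sided), with Benjamini-Hochberg adjustment. The test was checked on simulated data. All 9 genes were named, with their promoter sites, most called distal site, sites called in all 6 TAM libraries and in EtOH of both proteins, and sites called more in EtOH. Of the sites this rule names, 1 is not reported here. The genes and lists were chosen with earlier results of these data known. Python 3.11.15, numpy 2.4.6, pandas 2.3.3, scipy 1.17.1, and matplotlib 3.10.9 were used. Alternatives were other q thresholds, equal list lengths, other windows, promoter distances and replicate rules, counts without the log, a replicate block, and leaving out each library.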

Additional observations from a re-analysis of the deposited data

How the results depend on the processing

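The call of the TAM difference depended on list length and window. Of the 9 genes, 9 passed with every peak as deposited (72.1% of all genes) and without the log (67.6%), 7 at −log10 q of at least 10 (40.7%), 4 with a 10 kb flank (23% of all genes) and 0 in the gene body alone, where the smallest adjusted p was 0.0699. With lists of equal length 0 of the 7 genes tested passed, as 0% of all 9094 genes tested did, and the median difference over all genes was 0. By construction total peak number cannot differ between treatments there, and lists are shorter. Leaving out a library left 7 or 8 (46.4% to 53% of all genes), and 7 genes kept their call in all 11 omissions. ITGA2 and DST lost theirs at the stricter q (exact permutation test, adjusted p = 0.336 and 0.0550). The replicate numbers did not pair the samples, since same-numbered deviations correlated at -0.0330 to 0.0107, and with the replicate block 0 genes passed, because its 32 sign flips cannot give a p below 0.0625. The effects under the block were 1.26 (ITGA2) to 3.22 (LAMB3). The share, protein, and interaction tests gave 0 calls under all alternatives run.

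The number of sites was 196 with every deposited peak, 63 at the stricter q, 11 with equal lists, 43 in the bodies alone, 64 with 10 kb, 217 when 1 replicate sufficed, 50 when every replicate was needed, and 98 with an overlap of 0.5, and leaving out a library gave 81 to 99. Promoter sites were 26 over all transcripts, 23 within 1000 bp, and 15 at the stricter q, and 19 to 22 with a library left out. The percent of distal sites with AP-1 was 34.3 within 100 bp and 29.3 at the stricter q, and 26.2 to 32.7 with a library left out. Signs turned in the S100A9 minus S100A8 difference of ITGA2 at the stricter q (-0.0692), and with equal lists in the differences of LAMA3 (-0.0142), ITGA3 (-0.40), and DST (-0.56), the share of PLEC (5.40), and the interaction of ITGB1 (-1.03). None of these passed a test, and the cause was not tested.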
